A study of Homo sapiens with 12 samples.

Results

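The S100 genes encode small calcium-binding proteins, and 10 of them are described here across HT-29 cells with strengthened WNT signalling: S100A2, S100A3, S100A4, S100A6, S100A10, S100A11, S100A13, S100A14, S100A16 and S100P. They were taken by symbol from the 25528 rows of the deposited table, and all 10 were found. HT-29 is an established line of human colon adenocarcinoma whose genotype the labels give as APC mutant, so every group carried that mutation, controls included. Cells received lentivirus with an open reading frame, for GFP (the control) or CTNNB1, and were collected 2 days after infection. Other cells received lentivirus with a short hairpin RNA, either the control shNT1 or one against APC (shAPC), and were harvested 1 day after 2 µM doxycycline was added. Each of the 4 groups had 3 libraries, 12 in all. The study asked what stronger WNT signalling does to gene expression when CTNNB1 is overexpressed or APC is knocked down. The arms differ in vector, collection day and doxycycline, so each perturbed group was compared with its own control. All libraries come from a single cell line, and the labels name 1 hairpin against APC. They do not say whether replicates were separate cultures, so p-values measure the spread between these libraries, which may be technical.

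S100 proteins are built around a pair of EF-hand loops and usually act as dimers. Calcium binding opens a surface that grips partner proteins such as annexins and cytoskeletal proteins, and the proteins have no enzymatic activity of their own. S100A10 is an exception, since it no longer binds calcium and is held permanently in a complex with annexin A2. Beta-catenin, the product of CTNNB1, is marked for degradation by a complex that contains APC. In colon cancer S100A4 is best known as a promoter of migration and metastasis, and its gene has been described as a target of beta-catenin and its TCF partners.

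The genes were placed with RefSeq on GRCh38.p14, and the submitters' processing notes name hg38, the same assembly. Of the 10 genes, 9 lie on chromosome 1 and all 9 are on the minus strand. A cluster of 7 (S100A6, S100A4, S100A3, S100A2, S100A16, S100A14 and S100A13) spans chr1:153534599-153634361, or 99.8 kb. S100A10 and S100A11 lie between 151982915 and 152037004, 1498 kb away from that cluster. S100P stands alone on chromosome 4, from 6693878 to 6697170 on the plus strand. In GENCODE release 29, 10.6% of the exonic bases of S100A13 are shared with S100A1 on the opposite strand and 24.2% with the transcript AL162258.1 on the same strand. How such reads were counted, and whether by strand, is not given in the sources used here, so the level of S100A13 is uncertain to that extent. S100A3 and S100A4 overlap as gene models but share no exonic base.

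RefSeq sequence upstream of the start, 5′ to 3′, is shown for the 4 genes that fell in both arms, for S100P, which had the largest fall, and for S100A13, which was not called in either arm. The 250 bases before each start were searched on both strands, and capitals mark the matches. CTTTGA is a form of the core bound by TCF/LEF factors, and no other form was searched. TATAAA is the TATA box. TGANTCA is the AP-1 site. GGGCGG is an SP1 site. Where longer models of GENCODE release 29 place over 30 bases of the window in an exon, as for S100A6, S100A10, S100A4 and S100P, the 30 bases around the matches are given. The stretches are chr1:153536056-153536085 (S100A6, minus strand), chr1:151994009-151994038 (S100A10, minus), chr1:153545820-153545849 (S100A4, minus), chr1:153616356-153616575 (S100A14, minus), chr4:6693838-6693867 (S100P, plus) and chr1:153634362-153634611 (S100A13, minus). The RefSeq start of S100A13 lies upstream of the GENCODE one.
S100A6: gcgcGGGCGGgacttGGGCGGGCGGggtgg
S100A10: acgctctgtctgGGGCGGgcgaggcctctg
S100A4: gcctggctggggTATAAAtaggtcagacct
S100A14: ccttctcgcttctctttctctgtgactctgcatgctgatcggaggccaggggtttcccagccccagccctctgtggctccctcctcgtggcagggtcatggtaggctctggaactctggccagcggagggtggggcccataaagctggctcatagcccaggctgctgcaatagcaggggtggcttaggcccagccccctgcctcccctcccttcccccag
S100P: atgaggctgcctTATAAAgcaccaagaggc
S100A13: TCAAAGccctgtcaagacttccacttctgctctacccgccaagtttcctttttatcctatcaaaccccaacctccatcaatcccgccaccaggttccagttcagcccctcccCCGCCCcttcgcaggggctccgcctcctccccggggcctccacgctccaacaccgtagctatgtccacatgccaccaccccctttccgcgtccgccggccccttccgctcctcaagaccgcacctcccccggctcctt
Among the windows of all 10 genes the TCF/LEF letters occur in 1, that of S100A13, where they lie on the opposite strand at -250 to -245 from the start. In 35116 RefSeq windows of the same length 11.2% hold these letters. A TATA match occurs in 2, at -31 to -26 in S100A4 and at -28 to -23 in S100P, against 10.7% of all windows. SP1 letters occur in 5 of the 10 windows (42.6% of all windows), with 3 matches in S100A6, of which the matches at -79 to -74 and at -75 to -70 overlap. AP-1 letters occur in 2, those of S100A2 and S100A3 (6.57% of all windows). No other matches overlap, and a match is a string of letters, not a site shown to be bound.

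Levels are in TPM, transcript abundance, which divides by transcript length and scales every library to the same total, so genes can be ordered by it. Sequencing depth is not kept by TPM and is unknown, so no counting error is given. S100A6 was the most abundant member, with a mean of 3235 TPM over the 12 libraries and place 41 among all genes. S100A10 (1467 TPM), S100A11 (1246 TPM), S100P (1060 TPM) and S100A4 (457 TPM) followed. S100A16 (104 TPM) and S100A14 (102 TPM) were similar, and S100A13 (41 TPM), S100A2 (18.4 TPM) and S100A3 (2.58 TPM) were lowest. The order was the same in GFP and CTNNB1, and S100A14 stood before S100A16 in shNT1 and shAPC. Most neighbours in this order were apart in every library. The exceptions were S100A10 and S100A11, and S100A16 and S100A14, whose libraries overlapped in CTNNB1. S100A11 and S100P overlapped in shNT1 and shAPC, as did S100A14 and S100A16 in shAPC.

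**Figure D1:**
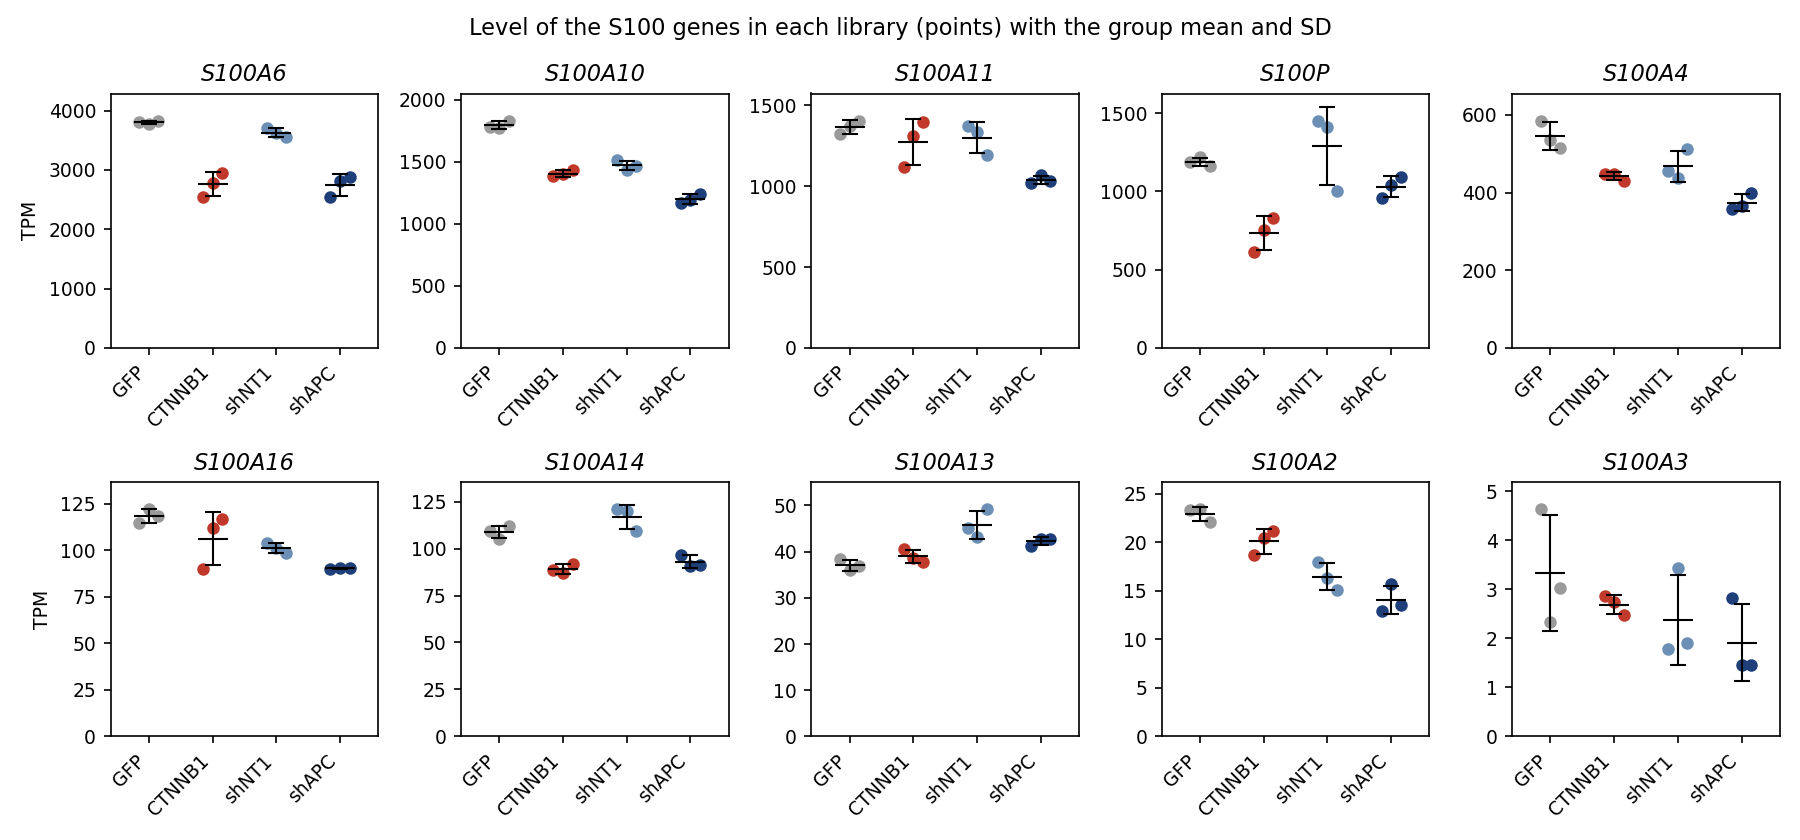
Level in TPM (vertical axis, from 0) of each S100 gene in the 4 groups. Points are single libraries, the wide bar is the mean and the whiskers the SD of 3 libraries. S100A6, S100A10, S100A4 and S100A14 are lower in every CTNNB1 library than in every GFP library and lower in every shAPC library than in every shNT1 library, while for S100P 1 shNT1 library (1004 TPM) lies among the shAPC libraries.

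The perturbed genes and the libraries were examined first. APC was at 15.8, 16.1 and 17.3 TPM in shNT1 and at 6.59, 5.91 and 5.48 TPM in shAPC. CTNNB1 was at 144, 145 and 150 TPM in GFP and at 165, 160 and 156 TPM in the CTNNB1 group, a difference that did not pass the test (log2 fold change 0.13, limma adjusted p = 0.059). It passed under quantile normalization (0.12, adjusted p = 0.048), after removal of the GC trend (0.12, adjusted p = 0.022) and, just, without replicate 1 of CTNNB1 (0.11, adjusted p = 0.05 as rounded), and was 0.06 under median-ratio scaling (adjusted p = 0.29). Of 7 WNT feedback genes, 6 passed as higher in the CTNNB1 arm and 7 in the shAPC arm (limma adjusted p under 0.05). NKD1, ASCL2 and SP5 led, and AXIN2 was up by 1.04 and 1.59 on the log2 scale. Of all genes tested, 23.5% passed in either direction in the CTNNB1 arm and 22.1% in the shAPC arm. Between 14756 and 16186 genes had a TPM above 0, and libraries of a group correlated at 0.991 to 0.997 (Pearson, across 11741 genes). Most epithelial markers were present, with EPCAM between 1400 and 1809 TPM. CDX2 was nearly absent, between 0.163 and 0.875 TPM, and KRT18 was the highest, between 3678 and 5721 TPM. The summed level of the 7 epithelial markers, CDX2 included, was 10219 to 10366 TPM in GFP, 11759 to 11894 in CTNNB1, 8262 to 9944 in shNT1 and 8285 to 9154 in shAPC. The summed level of 5 fibroblast markers was at most 1.6 TPM and that of 3 endothelial markers at most 0.478 TPM in any library. Of 5 leukocyte markers CD3E and MS4A1 were at 0 in all 12 libraries, PTPRC reached 0.0217 TPM and CD14 3.15 TPM. LYZ, which secretory gut epithelium also makes, stood at 6466 to 6553 TPM in GFP, 6782 to 7718 in CTNNB1, 6787 to 7084 in shNT1 and 7278 to 8019 in shAPC, and its part in the results was not tested.

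The summed level of the 10 genes was lower in both perturbed groups. This sum is weighted toward the most abundant genes, such as S100A6, and says little of the low ones. The 10 genes together made up 8968, 8960 and 9037 TPM in GFP and 6351, 6952 and 7311 TPM in the CTNNB1 group. They made up 8786, 8534 and 7998 TPM in shNT1 and 6288, 6727 and 6884 TPM in shAPC. Perturbed and control libraries did not overlap in either arm, and the share of all TPM went from 0.899% ± 0.004 to 0.687% ± 0.049 and from 0.844% ± 0.04 to 0.663% ± 0.031 (SD, n = 3 each). In bulk libraries fewer cells of a type and less RNA per cell cannot be told apart.

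**Figure D2:**
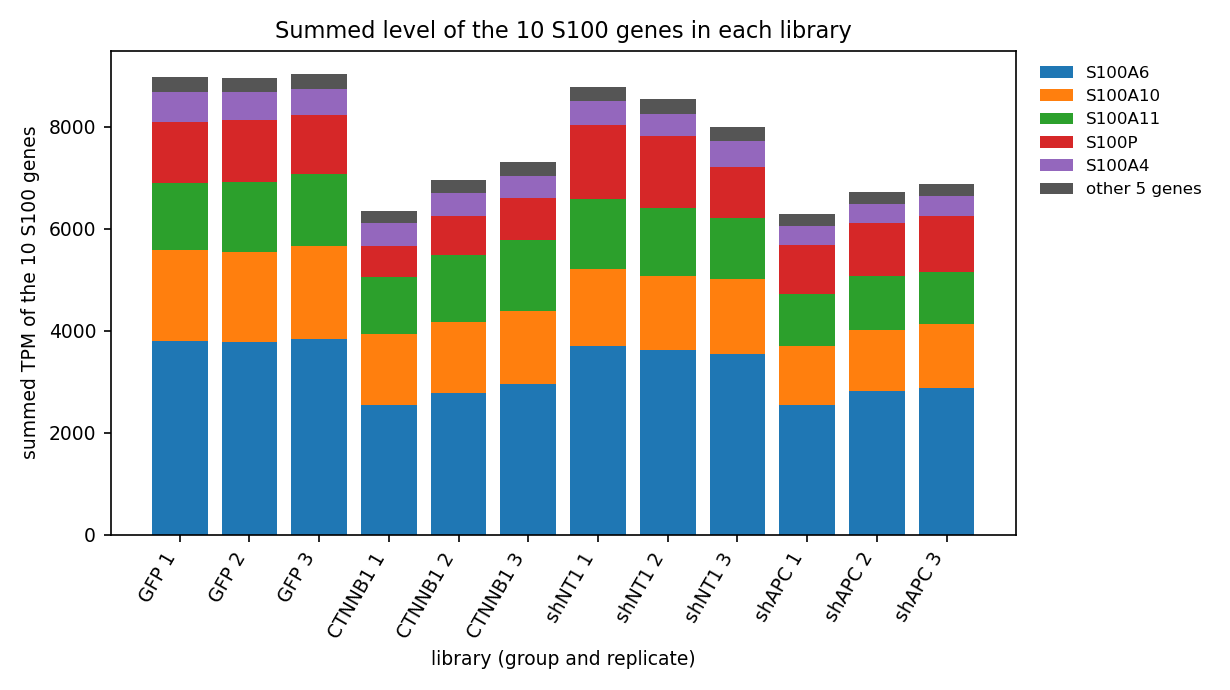
Summed TPM of the 10 S100 genes (vertical axis, from 0) in each of the 12 libraries, with the 5 most abundant genes in colour and the other 5 in dark grey. The CTNNB1 libraries (6351 to 7311 TPM) and the shAPC libraries (6288 to 6884 TPM) lie below their controls, and S100A6 is the largest single part in each bar.

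Each gene was tested with limma on log2(TPM + 1) in each arm, over all genes with a mean of at least 1 TPM. Genes with an adjusted p (Benjamini-Hochberg) under 0.05 are described as called. All 10 members were tested in both arms. In the CTNNB1 arm 5 of the 10 were called, all lower (S100A4, S100A6, S100A10, S100A14 and S100P), where 7.16% of all genes tested were called lower and 23.5% were called in either direction. In the shAPC arm 6 were called, all lower (S100A4, S100A6, S100A10, S100A11, S100A14 and S100A16), where 14.9% of all genes were called lower and 22.1% in either direction. The 4 that fell in both arms were S100A4, S100A6, S100A10 and S100A14, and 3.24% of the 11556 genes tested in both arms did so. The median log2 fold change of the 10 genes was -0.24 in the CTNNB1 arm, against 0.06 for all genes, and -0.3 in the shAPC arm, against -0.05 for all genes. Scaling moved the split of all called genes: 69.5% were higher in the CTNNB1 arm (46.1% under median-ratio scaling, 52.9% under quantile normalization) and 32.8% in the shAPC arm (44.3% and 49.4%). The members' median stayed negative, at -0.31 and -0.27 in the CTNNB1 arm and -0.26 and -0.25 in the shAPC arm. Every perturbed library lay below every control library for 6 members in the CTNNB1 arm (13% of all genes) and for 7 in the shAPC arm (26.4% of all genes). In the authors' deposited table for CTNNB1 the same 5 members had an adjusted p under 0.05. In the authors' deposited table for APC only S100A14 did (0.048), with S100A10 at 0.05 and S100A6 at 0.057, so the calls in this arm depend on the fit. The authors' log2 fold changes were negative for all 10 members in both deposited tables.

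**Figure D3:**
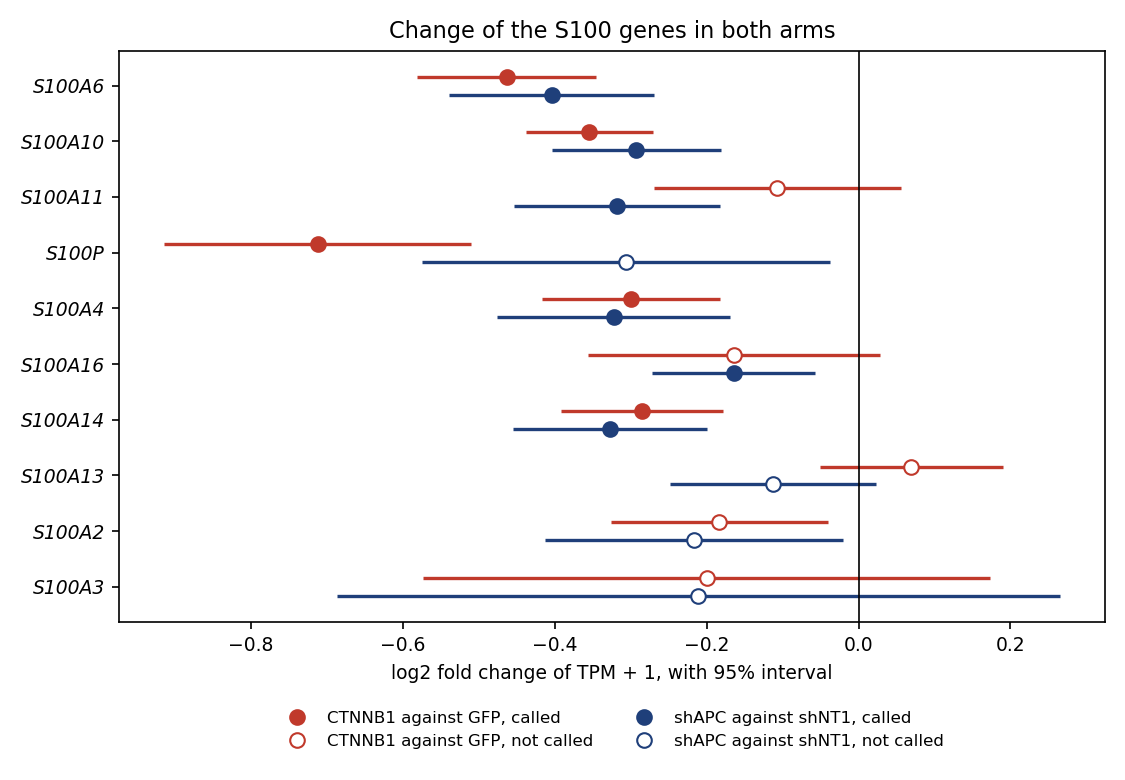
Log2 fold change of TPM + 1 (horizontal axis) with its 95% interval from limma for each S100 gene, CTNNB1 against GFP in red and shAPC against shNT1 in blue. Filled points passed an adjusted p under 0.05, as 5 genes did in the CTNNB1 arm and 6 in the shAPC arm, all of them to the left of 0.

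The members that bind annexins came first in abundance. S100A6 (calcyclin, a partner of annexins and of the ubiquitin ligase adaptor CACYBP) was at 3803, 3770 and 3830 TPM in GFP and at 2550, 2780 and 2955 TPM in the CTNNB1 group. It was at 3707, 3629 and 3551 TPM in shNT1 and at 2541, 2815 and 2883 TPM in shAPC. The perturbed libraries were all low and the control libraries all high, and the groups stood far apart in each arm. Its mean fell by 27.3% in the CTNNB1 arm (log2 fold change -0.46, SE 0.05, limma adjusted p = 0.00027) and fell by 24.3% in the shAPC arm (-0.4, SE 0.06, limma adjusted p = 0.0014).

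S100A10, the permanent partner of annexin A2 at the cell membrane, was at 1780, 1774 and 1830 TPM in GFP and at 1381, 1398 and 1432 TPM in the CTNNB1 group. In the hairpin arm it was at 1510, 1435 and 1465 TPM in shNT1 and at 1165, 1195 and 1240 TPM in shAPC. Libraries of a group lay close together, and GFP stood above the other 3 groups. The mean fell by 21.8% (log2 fold change -0.35, SE 0.04, limma adjusted p = 0.00018) and, in the shAPC arm, fell by 18.3% (-0.29, SE 0.05, limma adjusted p = 0.0029).

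S100A11, which binds annexin A1 and is tied to membrane repair, was at 1322, 1375 and 1405 TPM in GFP and at 1117, 1311 and 1396 TPM in the CTNNB1 group. The groups overlapped, replicate 1 of CTNNB1 being the lowest, and the change was not called (log2 fold change -0.11, 95% interval -0.27 to 0.06, limma adjusted p = 0.31). It was -0.01 without replicate 1 of CTNNB1 (adjusted p = 0.82) and -0.18 without replicate 3 (adjusted p = 0.076), -0.18 under median-ratio scaling (adjusted p = 0.19) and -0.03 under quantile normalization (adjusted p = 0.8). In the hairpin arm its level was 1373, 1337 and 1191 TPM in shNT1 and 1022, 1069 and 1033 TPM in shAPC. There the groups were apart and the mean fell by 19.9% (log2 fold change -0.32, SE 0.06, limma adjusted p = 0.0052).

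S100A4 and S100P, both associated with invasion in carcinomas, came next. S100A4, the metastasis-associated member that binds non-muscle myosin, was at 585, 534 and 515 TPM in GFP and at 449, 448 and 430 TPM in the CTNNB1 group. It was at 455, 437 and 513 TPM in shNT1 and at 357, 366 and 399 TPM in shAPC. The groups did not overlap in either arm, and the mean fell by 18.9% (log2 fold change -0.3, SE 0.05, limma adjusted p = 0.0033) and, in the shAPC arm, fell by 20.2% (-0.32, SE 0.07, limma adjusted p = 0.009). S100A4 was thus lower and AXIN2 higher in the same perturbed libraries.

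S100P, a secreted member that signals through the receptor AGER and binds ezrin, showed the largest change of the 10 genes. It was at 1187, 1218 and 1165 TPM in GFP and at 613, 754 and 827 TPM in the CTNNB1 group, with replicate 1 again the lowest. The groups were far apart, and the mean fell by 38.5% (log2 fold change -0.71, SE 0.09, limma adjusted p = 0.00051). In shNT1 it was at 1452, 1411 and 1004 TPM, and in shAPC at 960, 1040 and 1090 TPM. Replicate 3 of shNT1 lay among the shAPC libraries, far below the other controls, and the change was not called (-0.31, 95% interval -0.57 to -0.04, limma adjusted p = 0.097). Without that library the log2 fold change was -0.48 (limma adjusted p = 0.00027), so 1 control library decides this call. Replicate 3 of shNT1 also had the fewest genes above 0 (14756).

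S100A14 and S100A16, neighbours in the cluster that are expressed in epithelia, were near 100 TPM. S100A14 was at 110, 105 and 112 TPM in GFP and at 88.7, 86.8 and 91.9 TPM in the CTNNB1 group. It was at 121, 120 and 109 TPM in shNT1 and at 96.9, 90.6 and 91.2 TPM in shAPC. No libraries overlapped, and the mean fell by 18.1% (log2 fold change -0.29, SE 0.05, limma adjusted p = 0.0026) and, in the shAPC arm, fell by 20.5% (-0.33, SE 0.06, limma adjusted p = 0.0032).

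S100A16 was at 115, 122 and 119 TPM in GFP and at 90.1, 112 and 117 TPM in the CTNNB1 group. There replicate 1 stood apart, replicate 2 lay just below the controls and replicate 3 lay among them. The change was not called (log2 fold change -0.16, 95% interval -0.36 to 0.03, limma adjusted p = 0.2), and without replicate 1 it was -0.05 (adjusted p = 0.39). In the hairpin arm it was at 104, 101 and 98.6 TPM in shNT1 and at 90, 90.6 and 90.3 TPM in shAPC. Here the groups were apart, and the mean fell by 10.9% (-0.16, SE 0.05, limma adjusted p = 0.035). That call was not kept in one fit of all 4 groups (adjusted p = 0.12), under quantile normalization (-0.09, adjusted p = 0.23) or median-ratio scaling (-0.12, adjusted p = 0.098). It also ended when any 1 library other than replicate 3 of shNT1 was left out (adjusted p between 0.06 and 0.15).

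The remaining members were not called in either arm. S100A2, a member expressed in epithelial cells, was at 23.3, 23.4 and 22.1 TPM in GFP and at 18.7, 20.4 and 21.2 TPM in the CTNNB1 group. All 3 CTNNB1 libraries were lower than all GFP libraries, and the log2 fold change of -0.18 (SE 0.06) had a limma adjusted p of 0.066, which became 0.036 under median-ratio scaling (-0.25). In the hairpin arm S100A2 was at 17.9, 16.3 and 15.1 TPM in shNT1 and at 12.9, 15.7 and 13.6 TPM in shAPC, with overlap (-0.22, SE 0.09, limma adjusted p = 0.11). Its GFP level stood above its shNT1 level in every library, as did those of S100A4 (just), S100A6, S100A10 and S100A16. These controls differ in vector, collection day and doxycycline and were not tested against each other, and the share of all genes apart between them is not given.

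S100A13, which takes part in the copper-dependent release of FGF1 and interleukin 1 alpha, was the only member with a positive estimate in either arm. It was at 38.4, 36.1 and 36.8 TPM in GFP and at 40.5, 38.6 and 37.8 TPM in the CTNNB1 group, where the libraries overlapped. The log2 fold change was 0.07 (95% interval -0.05 to 0.19, limma adjusted p = 0.38) and its sign turned under median-ratio scaling (-0.0028). In the hairpin arm it was at 45.1, 43.1 and 49.2 TPM in shNT1 and at 41.3, 42.7 and 42.8 TPM in shAPC. The groups were just apart, and the change was not called (-0.11, 95% interval -0.25 to 0.02, limma adjusted p = 0.21), at -0.06 without replicate 3 of shNT1 (adjusted p = 0.51) and -0.03 under quantile normalization (adjusted p = 0.68). S100A13 was lower in all GFP libraries than in all shNT1 libraries, again without a test between these controls.

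S100A3, a cysteine-rich member best known from hair follicles, was near the lower limit of the filter. Its libraries ranged from 2.34 to 4.63 TPM in GFP, 2.47 to 2.86 in CTNNB1, 1.78 to 3.44 in shNT1 and 1.46 to 2.83 in shAPC. The SD was 35.3% of the mean in GFP, 38.9% in shNT1 and 41.2% in shAPC, against 0.791%, 2.16% and 6.6% for S100A6. In CTNNB1 the SD of S100A3 was 7.53% of its mean, close to the 7.35% of S100A6. The intervals reached from -0.57 to 0.17 and from -0.69 to 0.27 on the log2 scale. They held both 0 and the estimates of S100A6 (-0.46 and -0.4), so S100A3 could not be told from no change or from such a fall.

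**Figure D4:**
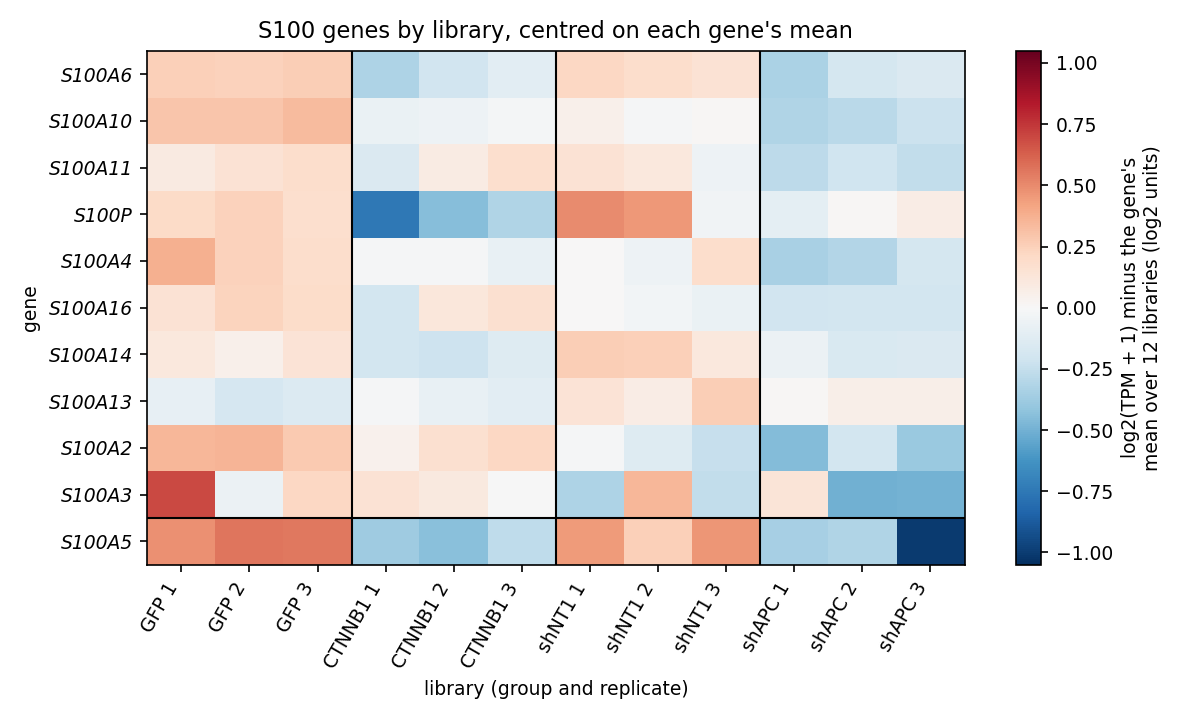
Log2(TPM + 1) of each S100 gene (rows) in each library (columns) minus that gene's mean over the 12 libraries, in log2 units, blue for lower and red for higher. S100A6 and S100A14 are each above their mean in all 6 control libraries and below it in all 6 perturbed ones. So is S100A5 in the bottom row, which is not one of the 10 genes. S100P in replicate 3 of shNT1 (-0.04) departs from the other shNT1 libraries (0.49 and 0.45).

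The size of each member's change was compared between the arms in a fit of all 12 libraries, as the log2 fold change of the CTNNB1 arm minus that of the shAPC arm. None of the 10 was called by limma, where 16.1% of 11741 genes were, and 2 members had an unadjusted p under 0.05. Those were S100P, with a difference of -0.41 (95% interval -0.78 to -0.03, limma adjusted p = 0.12), and S100A13, with 0.18 (0.01 to 0.35, limma adjusted p = 0.13). The S100P difference was -0.24 without replicate 3 of shNT1 (adjusted p = 0.24), and that of S100A13 became 0.07 with median-ratio scaling (adjusted p = 0.53) and 0.06 under quantile normalization (adjusted p = 0.61). For S100A11, called in the shAPC arm alone, the difference was 0.21 (95% interval -0.01 to 0.43, limma adjusted p = 0.17). Leaving out replicate 1 of CTNNB1 made it 0.3 (limma adjusted p = 0.026), the 1 setting in which a member was called, and median-ratio scaling made it 0.1 (limma adjusted p = 0.66). The other 7 members differed by -0.06 to 0.04 (smallest limma adjusted p 0.49), and their intervals lay within -0.64 to 0.66. Under median-ratio scaling the median of this difference over all genes went from 0.11 to 0.0038, and over the members from 0.02 to -0.08. Of all genes called for it, 82.8% were higher, and 54.7% under that scaling.

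S100 transcripts are short, with a median length between 521 and 1042 bases in GENCODE release 29, and genes under 1000 bases were therefore set beside them. In the CTNNB1 arm the median log2 fold change of such genes was 0.04 and 8.2% were called lower. In the shAPC arm it was -0.04 and 14% were called lower. Removing each library's trend with transcript length left the counts at 5 and 6 members, and removing the trend with GC content gave 6 and 6. Among genes with a mean of at least 1000 TPM, where S100A6, S100A10 and S100A11 lie in both arms, the medians were -0.01 and 0.11.

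The rest of the family was nearly silent apart from S100A5, a neighbour of S100A6 in the cluster. Of 11 further S100 genes, S100A7A, S100A7L2, S100A12, S100B and S100G were listed at 0 in all 12 libraries. S100A1 reached at most 1.4 TPM, and S100A7, S100A8, S100A9 and S100Z at most 0.85 TPM. S100A8 and S100A9 form calprotectin, the abundant S100 complex of neutrophils and monocytes. S100A5 was the only 1 of the 11 with a mean of at least 1 TPM. It was at 7.79, 8.3 and 8.27 TPM in GFP and at 3.87, 3.65 and 4.25 TPM in the CTNNB1 group. It was at 7.6, 6.52 and 7.73 TPM in shNT1 and at 3.97, 4.08 and 2.14 TPM in shAPC. The groups did not overlap, and the mean fell by 51.7% (log2 fold change -0.89, SE 0.08, limma adjusted p = 6.9e-05) and, in the shAPC arm, fell by 53.4% (-0.94, SE 0.17, limma adjusted p = 0.0033), more than for any of the 10 members in either arm.

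Among partners of the S100 proteins some rose and some fell. AGER, the receptor named for S100P, reached at most 0.275 TPM in any library. FGF1 and IL1A (interleukin 1 alpha), named beside S100A13, reached at most 0.017 and 0.907 TPM. Of 25 partners and receptors 17 were tested, and 2 were called higher (ANXA6 and MYH9, the latter named after its values were seen) and 1 lower (ANXA2) in the CTNNB1 arm, with a median log2 fold change of -0.0005 (all genes 0.06). Of all genes tested in that arm, 23.5% were called in either direction and 7.16% lower. In the shAPC arm 1 was called higher (ANXA6) and 6 lower, with a median of -0.14 (all genes -0.05). Of all genes tested there, 22.1% were called in either direction and 14.9% lower. ANXA2, the partner of S100A10, fell from 3891 ± 66 to 3001 ± 90 TPM (SD, n = 3 each; log2 fold change -0.37, limma adjusted p = 0.00016). Under shAPC it fell from 3308 ± 124 to 2509 ± 54 TPM (SD, n = 3 each; -0.4, limma adjusted p = 0.00069). The falls of ANXA2 were close to those of S100A10, with no library overlap in either gene. ANXA6, another annexin, had means of 0.951 TPM in GFP and 4.07 TPM in CTNNB1, of 2.76 TPM in shNT1 and 7.91 TPM in shAPC, and rose in both arms (1.38 and 1.25 on the log2 scale, limma adjusted p = 2.5e-05 and 3.0e-05). AHNAK, a scaffold held by the complex of S100A10 and annexin A2, fell by 0.72 in the shAPC arm (limma adjusted p = 0.0044), while in the CTNNB1 arm it missed the threshold (-0.09, limma adjusted p = 0.65) but was called without replicate 1 of CTNNB1 (-0.27, adjusted p = 0.015). The difference between the arms for AHNAK was not called (0.63, limma adjusted p = 0.061). IQGAP1, a cytoskeletal scaffold that binds S100P, was at 278 ± 7.24 TPM in GFP and 314 ± 30 TPM in CTNNB1 (SD, n = 3 each; 0.17, limma adjusted p = 0.079), and passed the threshold without replicate 3 of CTNNB1 (0.23, limma adjusted p = 0.023), under quantile normalization (0.21, 0.045) and after removal of the GC trend (0.17, 0.03). Median-ratio scaling made it 0.1 (adjusted p = 0.2), as did leaving out replicate 1 of CTNNB1 (adjusted p = 0.091). Under shAPC it fell from 317 ± 14.5 to 247 ± 16.8 TPM (SD, n = 3 each; -0.36, limma adjusted p = 0.0028).

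S100A10 with annexin A2 also serves as a plasminogen receptor, and 3 of 6 genes of the plasminogen system were tested. PLAUR, the urokinase receptor, had means of 48.1 TPM in GFP and 33 TPM in CTNNB1, of 47.2 TPM in shNT1 and 27 TPM in shAPC, and fell in both arms (-0.53 and -0.79 on the log2 scale, limma adjusted p = 0.0002 and 0.00013). PLAU, which encodes urokinase, went from 0.59 TPM in GFP to 1.88 TPM in CTNNB1 and rose (0.86, limma adjusted p = 0.0012; 1.56 with a pseudocount of 0.1) but missed the threshold against shNT1 (0.26, limma adjusted p = 0.31). SERPINE2, an inhibitor of serine proteases, rose by 0.37 in the CTNNB1 arm (limma adjusted p = 0.0067). Under shAPC, SERPINE2 fell by 0.4 (limma adjusted p = 0.037), a call lost without a filter (adjusted p = 0.12), under median-ratio scaling (0.051) or without a variance trend (0.055). It was also lost without any 1 of the shAPC replicates (adjusted p = 0.11, 0.068 and 0.11) or without replicate 3 of shNT1 (-0.25, adjusted p = 0.065).

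Genes that lie beside the S100 genes on chromosome 1 without belonging to the family were looked at for position. Of 12 such genes 5 were tested. None was called in the CTNNB1 arm by limma, nor had any an unadjusted p under 0.05, and 1, ILF2, was called in the shAPC arm, where it rose by 0.22 (limma adjusted p = 0.024). That call was lost without a filter (adjusted p = 0.058), without a variance trend (0.059), with the replicate block (0.053), and without replicate 1 (0.065) or 3 (0.084) of shAPC. Another of the 5 had an unadjusted limma p of 0.04 in the shAPC arm (log2 fold change 0.12, adjusted p = 0.12). Of all genes tested, 23.5% were called in either direction in the CTNNB1 arm and 22.1% in the shAPC arm. The median log2 fold changes of the 5 were 0.08 and 0.04 (all genes 0.06 and -0.05), against medians of -0.24 and -0.3 for the 10 S100 genes. A part played by position was not tested.

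The profiles most like those of the 7 called members were sought among 9437 genes with a mean of at least 5 TPM, as the root mean square difference of log2(TPM + 1) over 12 libraries, each gene centred on its mean. For S100A6 they were NAPRT (0.08), TMEM92 (0.09) and CRIP1 (0.09). S100A10 was closest to EMG1 (0.06), HPCAL1 (0.06) and BCCIP (0.06), and S100A4 to MFSD1 (0.06), TFPI (0.07) and CHORDC1 (0.07). For S100A11 the nearest were GIPC1 (0.05), SPRYD3 (0.06) and DDOST (0.06), for S100A14 MCTP1 (0.05), ZCCHC8 (0.06) and PLEKHA6 (0.07), and for S100A16 EIF5A (0.05), HMGA1 (0.05) and PPP1R14B (0.05). S100P was farther from its nearest genes, CYSTM1 (0.15), LGALS4 (0.18) and STX1A (0.19). Its own root mean square deviation was 0.35, against 0.16 to 0.23 for the other called members. No member was among the 3 nearest genes of another.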

How the data were processed

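RNA-seq of HT-29 cells gave 12 libraries, which were grouped by their titles. The authors deposited TPM per gene, aligned with STAR 2.7.3a to hg38 per the submitters' processing notes; the annotation and the quantification step are not given in the sources used here. Per the file headers, the authors' deposited limma tables hold log2 fold changes, p-values and adjusted p-values, besides a t statistic and a B score, neither used here. TPM keeps no depth, so the depth per library and its precision are unknown.

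Each arm was fitted alone by limma (3.58.1, R 4.3.3) on log2(TPM + 1), with a mean-variance trend and no replicate block, over genes whose mean reached 1 TPM. The difference between the arms was a contrast in one fit of all 12 libraries. Adjusted p-values are Benjamini-Hochberg over all genes tested, two-sided. Fold changes on this scale understate those of low genes. The fits were tried on simulated counts whose depth and spread were set, not taken from these libraries. That trial therefore does not show how well the calls hold here. Settings varied one at a time: pseudocount 0.1; filter off or at 5 TPM; median-ratio or quantile scaling; no variance trend; the replicate block; all 4 groups in one fit; threshold 0.01; each library left out. Removal of trends with transcript length or GC content (95.5% of genes matched to GENCODE release 29) was added after seeing the data.

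The members and lists were chosen with earlier results of these data known. Named beside the 10 members were the perturbed genes, list genes called in at least 1 arm (the 4 largest changes where more than 6 were called), and the 3 closest profiles of each called member. MYH9 and RNF43 were named outside this rule, after their values were seen. Some genes of the lists are not reported here, and the lists' counts leave them out. Promoter sequences are RefSeq's, GRCh38.p14.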

Additional observations from a re-analysis of the deposited data

Results flagged for a closer look

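Outside the 10 S100 genes, 5 of the genes that the naming rule picked changed by different amounts in the arms. The test was that of the difference itself (CTNNB1 effect minus shAPC effect, limma over 12 libraries). Of all 11741 genes tested, 16.1% were called for it. The rule picks list genes by a call in at least 1 arm of these data, so the 5 cannot be set against that share. The difference was 1.53 for APC (limma adjusted p = 1.2e-05), the target of the hairpin, where the design builds in a difference. It was 0.77 for SERPINE2 (limma adjusted p = 0.0038), the protease inhibitor, and 0.53 for IQGAP1 (limma adjusted p = 0.0024), the scaffold that binds S100P. The difference was -0.69 for ASCL2 (limma adjusted p = 0.0054) and -0.56 for AXIN2 (limma adjusted p = 0.00057), which rose in both arms. MYH9 and RNF43, named outside that rule, were called for the difference too and are given further on. None of the 10 S100 genes was.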

How the results depend on the processing

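The number of S100 genes called was 5 in the CTNNB1 arm and 5 or 6 under every alternative. In the shAPC arm it was 6, with 5 or 6 under the alternatives that kept all libraries and 5 to 7 when 1 library was left out. For the difference between the arms it was 0 under every alternative but 1: leaving out 1 library gave 0 to 1. S100A4, S100A6, S100A10 and S100A14 kept their direction and their call in both arms under all alternatives, as did S100P in the CTNNB1 arm (log2 fold change -0.81 to -0.59) and S100A11 in the shAPC arm (-0.38 to -0.27). Their largest adjusted p was 0.045, for S100A4 without replicate 1 of shAPC. With the replicate block 5 members were called in the CTNNB1 arm and 5 in the shAPC arm, where S100A16 was lost (-0.16, adjusted p = 0.11). Same-numbered libraries deviated with correlations of 0.209, 0.076 and 0.121 in the CTNNB1 arm and -0.138, 0.002 and -0.21 in the shAPC arm, so the numbers were not taken to pair the libraries. Signs turned only for values not called with all libraries. S100A3 ranged from -0.3718 to 0.0064 in the CTNNB1 arm (highest without replicate 1 of GFP) and from -0.4236 to 0.0035 in the shAPC arm (highest without replicate 2 of shNT1) when 1 library was left out. S100A13 became -0.0028 under median-ratio scaling in the CTNNB1 arm. AHNAK there ranged from -0.2662 (called, without replicate 1 of CTNNB1) to 0.0102 (without replicate 3). CTNNB1 in the shAPC arm, at -0.0038, became 0.0389 under median-ratio scaling, 0.0777 under quantile normalization and 0.015 after length removal, and ranged from -0.0285 to 0.043 with 1 library left out. The cause was not tested. Of 959 values recomputed for 58 results, 915 kept direction and side of the threshold, 22 lost a call, 13 gained one and 9 turned sign. Depth is unknown, so the precision of low genes such as S100A3 rests on the spread between libraries alone.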

Other observations

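MYH9 and RNF43 are named here after their values were seen. MYH9, the non-muscle myosin heavy chain that S100A4 binds, was at 214 ± 14.6 TPM in GFP and rose to 272 ± 1.07 TPM in CTNNB1 (SD, n = 3 each; log2 fold change 0.34, limma adjusted p = 0.0016). Against shNT1 it went from 220 ± 23.9 to 194 ± 16.1 TPM (SD, n = 3 each; -0.18, limma adjusted p = 0.15), and the difference between the arms was 0.52 (limma adjusted p = 0.0061). Of the 7 WNT feedback genes RNF43, which encodes a ubiquitin ligase acting on WNT receptors, was called in the shAPC arm alone, and its difference between the arms was -0.33 (limma adjusted p = 0.02).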
